A study of Mus musculus with 35 samples.

Results

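The B-cell receptor signalling components described here are 8 genes: Cd79a, Cd79b, Syk, Btk, Blnk, Lyn, Blk and Plcg2. They were found by their gene symbols among 12393 genes measured in mouse B cells and lymphoid tumours on Affymetrix Mouse 430A2 arrays, and each is given by its probe set of highest mean over all 35 arrays. A probe set is the group of probes on the array that reads 1 transcript. A named probe set was found for 7 of the 8 genes, and Lyn, a Src family kinase that starts signalling, was not analysed here.

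Of the 35 arrays, 22 held wild-type B cells sorted at 6 stages and 13 held tumours, in 9 groups. Bone marrow gave 3 arrays of pro-B cells, sorted as CD43-high and B220+ without IgM, and 3 of pre-B cells, which were CD43-low but otherwise sorted alike. The 3 plasma cell arrays were also from marrow, from Cd138+ cells with low B220 and no Cd93. Spleen gave 4 arrays of transitional cells (Cd93+, B220+), 5 of germinal centre (GC) cells (PNA-high, B220+) and 4 of plasmablasts, which carried B220 and Cd138 but not Cd93. Strain 129 was the source of the pre-B and transitional cells, strain B6 that of the GC, plasmablast and plasma cells, and pro-B cells came from both (2 arrays of 129 and 1 array of B6). The tumours are called Bcl6 (n = 4), Myc/Bcl6 (n = 3) and Lig4/p53 (n = 6). Bcl6 tumours carry a Bcl6 allele that the labels call transgenic in one place and a knock-in in another. The Myc/Bcl6 mice were transgenic for both genes, and the Lig4/p53 mice lacked both Lig4 and p53. Every tumour is labelled only as a lymphoid tumour, with no cell type, promoter or age given, and no tumour was sorted. The labels do not say whether each replicate was 1 mouse or a pool, so p-values measure the spread between these arrays.

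The B-cell receptor binds antigen through membrane immunoglobulin, which has almost no cytoplasmic part, and signals through the Cd79a and Cd79b chains bound to it. Src family kinases such as Lyn and Blk phosphorylate these chains, which recruit the kinase Syk. Syk phosphorylates the adaptor Blnk, on which the kinase Btk and the phospholipase Plcg2 meet, and Plcg2 then opens the calcium, protein kinase C and Ras branches of the pathway. Before the complete receptor is made, the same chains serve the pre-B-cell receptor, which uses a surrogate light chain.

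Promoter sequence was available for 5 of the 8 genes, and 2 are shown: that of Cd79a, which lay far below its levels in sorted cells in Bcl6 and Myc/Bcl6 tumours, and that of Blnk, the adaptor, which did not differ from GC cells past the test in either. Each is the 250 bases before the gene start, 5′ to 3′ on the gene's strand, from RefSeq on GRCm38.p6, with motif matches in capitals. The Cd79a stretch is chr7:24897247-24897496 on the + strand and the Blnk stretch is chr19:40994222-40994471 on the - strand.
Cd79a: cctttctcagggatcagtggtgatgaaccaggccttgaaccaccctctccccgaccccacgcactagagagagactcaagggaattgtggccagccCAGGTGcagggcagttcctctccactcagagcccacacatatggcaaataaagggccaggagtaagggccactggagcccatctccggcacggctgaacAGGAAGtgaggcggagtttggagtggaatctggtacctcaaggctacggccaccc
Blnk: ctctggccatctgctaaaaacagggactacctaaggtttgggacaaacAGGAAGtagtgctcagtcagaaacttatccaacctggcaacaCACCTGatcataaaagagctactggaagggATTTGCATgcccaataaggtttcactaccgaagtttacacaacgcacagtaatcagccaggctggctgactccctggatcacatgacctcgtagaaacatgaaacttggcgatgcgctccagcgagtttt
The letters searched on both strands were AGGAAG (Ets factors), CAGCTG and CACCTG (E-boxes), ATGCAAAT (octamer), the Ebf1 motif by its 10-letter palindrome and GCCATNTT (Yy1). The shares that follow are of 32851 mouse promoter windows that run from 250 bases before to 50 after the start. The Ets letters stand at -55 in Cd79a and at -202 in Blnk, counted from the gene start, and occur in 35.4% of the windows. CACCTG stands at -160 in Blnk and, on the opposite strand, at -154 in Cd79a, against 20.2% of windows. The octamer, on the opposite strand at -130, was in the Blnk window and in 1.74% of all windows. The exact 10-letter Ebf1 palindrome (0.904% of windows) and the Yy1 letters (6.05%) were not in either window. Looser forms of these motifs were not searched, so this does not show that either factor lacks a site there. The capitals mark letters only and do not show that a factor binds.

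Levels are log2 intensities, on which 1 unit is a 2-fold difference. Levels of different genes are not compared, since their probes differ. A gene was called where limma's moderated test gave a Benjamini-Hochberg adjusted p under 0.05 over all 12393 genes, and only called genes are said to rise or fall. The interquartile range of the array was 2.09 in pro-B replicate 1, 2.03 in pre-B replicate 2 and 2.15 in Bcl6 replicate 2, 2.33 to 2.85 in the Myc/Bcl6 tumours and at least 3.25 elsewhere. RNA length was followed by how much brighter the 3' than the 5' control probe sets of Actb and Gapdh were; this 3' minus 5' difference increases with shorter RNA. It was 3.65 to 4.60 in Bcl6, 3.23 to 4.70 in Myc/Bcl6 and 2.25 to 3.64 in Lig4/p53 tumours. It was 4.59, 4.46 and 0.451 in the 3 plasma cell arrays and 0.68 to 2.95 in all other sorted arrays. The mean of the 18S rRNA control probe sets was 10.035 to 11.28 in every pro-B, pre-B, transitional, GC and plasmablast array. Plasma cell arrays had 4.02, 4.21 and 7.38. In tumours it was 4.14 to 4.65 (Bcl6), 4.24 to 4.62 (Myc/Bcl6) and 4.15 to 6.15 (Lig4/p53). This split ran along the comparisons of tumours with sorted cells and of plasma cells with plasmablasts or GC cells. Its part in the results was not tested.

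Some arrays went against what their label would lead one to look for. Sdc1, the gene of the Cd138 protein used to sort them, was 3.88, 4.60 and 5.71 in the plasma cell arrays. It was 5.52 to 10.44 in plasmablasts and 10.43 to 10.98 in pre-B cells. Per array the mean of 5 plasma cell markers was 7.80 to 7.99 in plasma cells and 8.51 to 8.74 in pre-B cells. In plasmablasts it was 7.26 to 10.03. Plasma cell replicates 1 and 2 were high for the B-cell genes Ms4a1 (10.14 and 10.62) and Cd22 (10.76 and 10.56), while replicate 3 had 7.69 and 9.13. Myc/Bcl6 replicate 1 was low for the B-cell genes Ms4a1 (4.39), Ighm (5.61) and Cd22 (6.36), while replicates 2 and 3 had 11.56 and 11.37 for Ms4a1 and 11.74 and 13.03 for Ighm. Among Bcl6 tumours, replicate 1 was low for Ighm (7.65) beside 12.39 to 13.44 in the others. Pax5, a defining B-cell factor, had a group mean of at most 4.95 in every group, so its probe set did not mark the lineage here.

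Cd79a (probe set 1418830_at, chr7:24897497-24901858, GRCm38.p6 as for all genes here), the gene of the Igα chain, was high in every sorted group and low in the tumours with Bcl6. Its levels were 9.01, 10.88 and 11.15 in pro-B cells, 11.39, 11.53 and 11.23 in pre-B cells, and 12.26, 12.57, 12.01 and 12.06 in transitional cells. GC cells had 10.31, 10.68, 11.21, 11.07 and 11.34, plasmablasts 11.54, 11.53, 12.16 and 11.38, and plasma cells 9.88, 9.76 and 10.89. The transitional arrays lay above every array of pro-B, pre-B, GC and plasma cells, and plasmablast replicate 3 was the highest array of the later stages. Between GC and transitional arrays 34.8% of all genes had no overlap, and that share is not given for pro-B, pre-B and plasma cells. Bcl6 tumours had 6.80, 6.87, 6.97 and 7.22, Myc/Bcl6 tumours 5.51, 6.66 and 7.54, and the Lig4/p53 tumours ran from 9.73 to 11.03 with a median of 10.15. The 7 arrays of Bcl6 and Myc/Bcl6 tumours thus lay between 5.51 and 7.54, below the lowest of the other 28 arrays (9.01). That pattern, looked for after the levels were seen, held for 58 of 12393 genes (0.468%) and for 1 of the 7 measured components.

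Cd79b (1417640_at, chr11:106311341-106314562), the gene of the partner chain Igβ, had 8.10, 10.10 and 10.49 in pro-B cells and 11.26, 10.26 and 11.09 in pre-B cells. It was 11.64, 11.65, 11.15 and 11.14 in transitional cells, 11.49, 11.49, 11.81, 11.52 and 11.58 in GC cells, and 11.41, 11.37, 11.75 and 11.48 in plasmablasts. These 3 splenic groups overlapped, and the plasma cell arrays (10.05, 10.05 and 10.42) lay below all of them. Between plasma cells and plasmablasts 36.5% of all genes had no overlap. Bcl6 tumours had 9.32, 7.57, 8.71 and 8.92 and Myc/Bcl6 tumours 7.91, 7.61 and 7.89. Lig4/p53 tumours ran from 10.002 to 10.92 with a median of 10.66, above every array of the other tumour groups. Between Lig4/p53 and Bcl6 tumours 24.2% of all genes had no overlap, and that share is not given for Lig4/p53 against Myc/Bcl6 tumours. Over the 9 group means Cd79a and Cd79b correlated with r = 0.936, and over 35 arrays with r = 0.897, values that describe arrays sharing groups and RNA quality.

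**Figure D1:**
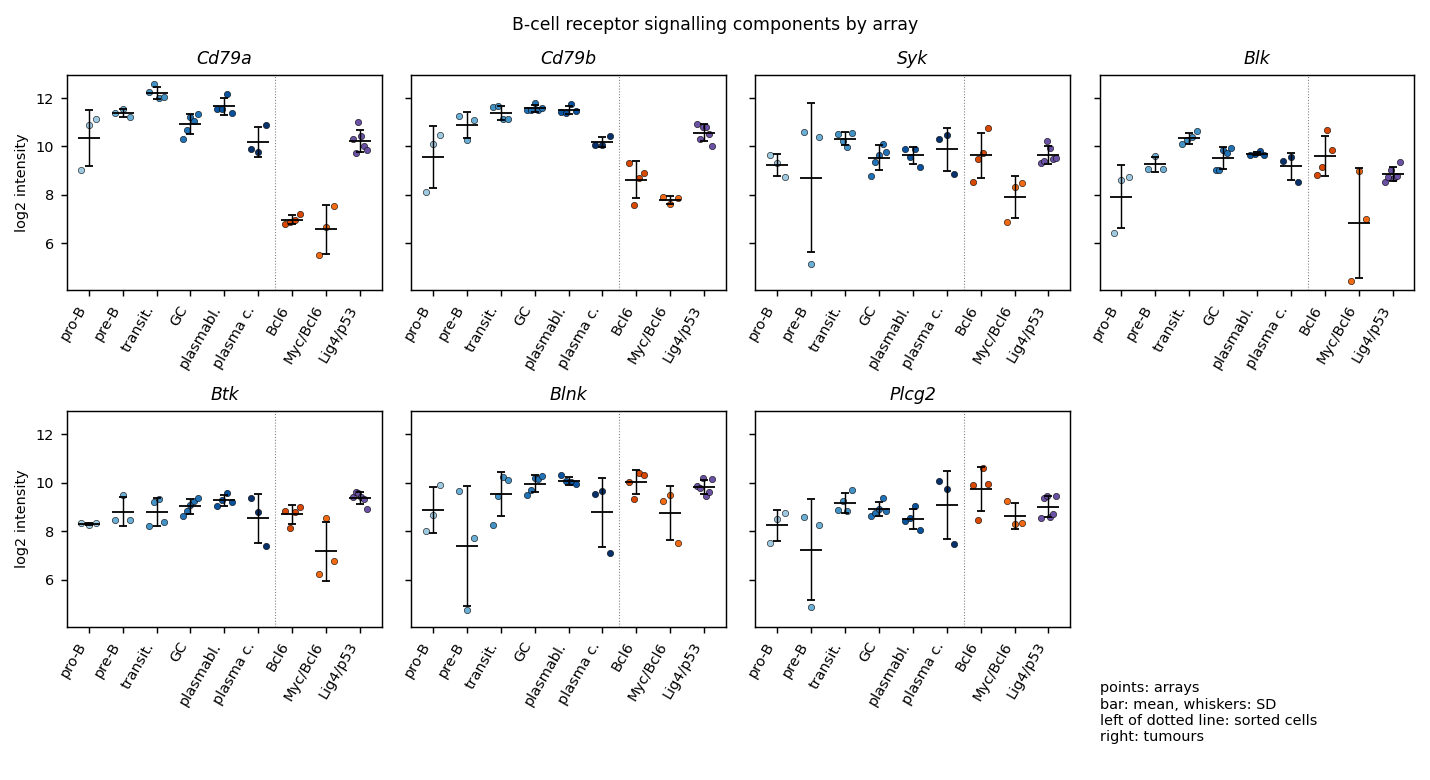
Log2 intensity (vertical axis) of the 7 measured components in each of the 35 arrays, by group (horizontal axis); points are arrays, bars the group mean and whiskers the SD. Cd79a lies between 5.51 and 7.54 in the Bcl6 and Myc/Bcl6 tumours and at 9.01 or more elsewhere, while Syk, Blnk and Plcg2 overlap between Bcl6 tumours and GC cells.

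Syk (1418261_at, chr13:52582610-52648792), the kinase recruited to the phosphorylated chains, had 9.64, 9.30 and 8.73 in pro-B cells, and 10.59, 5.15 and 10.40 in pre-B cells. It was 10.53, 10.22, 9.99 and 10.54 in transitional cells, 8.76, 9.37, 9.65, 10.12 and 9.78 in GC cells, 9.88, 9.57, 9.90 and 9.15 in plasmablasts, and 10.29, 10.48 and 8.87 in plasma cells. The low pre-B value came from replicate 2, an array of narrow spread. Bcl6 tumours had 8.52, 9.50, 9.73 and 10.78, on both sides of the GC arrays, and Myc/Bcl6 tumours 6.89, 8.34 and 8.49, below them. The Lig4/p53 tumours ran from 9.30 to 10.24 with a median of 9.50.

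Blk (1422775_at, chr14:63372837-63417187), the Src family kinase of the B lineage, had 6.43, 8.61 and 8.73 in pro-B cells, 9.08, 9.62 and 9.07 in pre-B cells, and 10.09, 10.27, 10.40 and 10.63 in transitional cells. These 3 groups did not overlap with each other, but Blk was not called in either step (adjusted p = 0.28 and 0.149, limma). The share of all genes without overlap is not given here for these steps. In the comparisons where it is given below, it ran from 24.2% to 52.6%. GC cells had 9.01, 9.04, 9.84, 9.72 and 9.94, plasmablasts 9.66 to 9.80, and plasma cells 9.41, 9.58 and 8.54. Bcl6 tumours had 8.81, 9.13, 10.67 and 9.84 and overlapped with GC cells. The Myc/Bcl6 tumours differed most among themselves, with 4.45, 9.0 and 7.02, and the lowest was the array low for Ms4a1 and Ighm, while the highest lay just under the lowest GC array. Lig4/p53 tumours ran from 8.54 to 9.34.

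Btk (1422755_at, chrX:134542334-134583628), the Tec family kinase that activates Plcg2, had 8.33, 8.27 and 8.32 in pro-B cells, 8.45, 9.51 and 8.45 in pre-B cells, and 8.23, 9.22, 9.33 and 8.38 in transitional cells. GC cells ran from 8.61 to 9.36, plasmablasts from 9.02 to 9.57 and Lig4/p53 tumours from 8.93 to 9.62, while plasma cells had 9.37, 8.81 and 7.39. Bcl6 tumours had 8.83, 8.14, 8.78 and 9.01, partly within the GC range, and Myc/Bcl6 tumours 6.22, 8.55 and 6.76, all below it.

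Blnk (1451780_at, chr19:40928927-40994221), the adaptor, had 8.02, 8.67 and 9.93 in pro-B cells, 9.66, 4.73 and 7.74 in pre-B cells, and 8.27, 9.46, 10.25 and 10.12 in transitional cells. It was 9.48 to 10.27 in GC cells, 9.95 to 10.33 in plasmablasts, and 9.53, 9.67 and 7.11 in plasma cells. Bcl6 tumours had 10.02, 9.33, 10.39 and 10.34, which spans the GC range. Myc/Bcl6 tumours had 9.26, 9.50 and 7.49, and Lig4/p53 tumours 9.46 to 10.21.

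Plcg2 (1426926_at, chr8:117498275-117635142), the phospholipase that cleaves a membrane lipid into the calcium-releasing messenger and diacylglycerol, had 7.51, 8.49 and 8.73 in pro-B cells, 8.59, 4.86 and 8.27 in pre-B cells, and 8.87, 9.25, 8.83 and 9.72 in transitional cells. GC cells ran from 8.64 to 9.38, plasmablasts had 8.41, 8.53, 9.02 and 8.03, and plasma cells 10.06, 9.72 and 7.48. Bcl6 tumours had 9.91, 8.46, 10.63 and 9.93, so that 3 of 4 lay above every GC array. Myc/Bcl6 tumours had 9.26, 8.32 and 8.32 and Lig4/p53 tumours 8.56 to 9.44. Pre-B replicate 2 and plasma cell replicate 3 were the lowest arrays of their groups for Syk, Blnk and Plcg2 alike.

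For each gene the 9 groups were put in order by these same group means, so neighbours are close by construction. A small number of calls between neighbours therefore says little. Of the 56 steps between neighbours 1 was called: Cd79a from plasma cells (mean 10.18) to Bcl6 tumours (6.97, difference 3.22 ± 0.43 SE, adjusted p = 1.969e-06, limma). The share of all genes called between plasma cells and Bcl6 tumours is not given here. Cd79a ranked transitional, plasmablast, pre-B, GC, pro-B, Lig4/p53, plasma cell, Bcl6 and Myc/Bcl6, from high to low. Cd79b ranked GC, plasmablast, transitional, pre-B, Lig4/p53, plasma cell, pro-B, Bcl6 and Myc/Bcl6. For Syk, Blk and Btk the lowest group was Myc/Bcl6 and for Blnk and Plcg2 it was pre-B, while the highest was transitional for Syk and Blk, Lig4/p53 for Btk, plasmablast for Blnk and Bcl6 for Plcg2.

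Along normal development few components passed the test. From pro-B to pre-B cells none of the 7 was called, where 0.161% of all genes were. Cd79b (1.31 ± 0.43 log2 units, adjusted p = 0.266), Blk (1.33 ± 0.46, adjusted p = 0.28) and Cd79a (1.04 ± 0.45, adjusted p = 0.356) had the smallest p in limma, and these 3 had an unadjusted p under 0.05. Pro-B replicate 1, an array of narrow spread, was the lowest pro-B array for all 3, and without it the differences were 0.58 for Cd79b (adjusted p = 0.293), 0.59 for Blk (adjusted p = 0.324) and 0.37 for Cd79a (adjusted p = 0.528). Erythroid markers, 3 of 6 called higher, moved with this step: their mean level per array was 7.30 to 7.53 in pre-B and 4.28 to 5.48 in pro-B cells. Their part in the result was not tested.

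From pre-B to transitional cells 0 of 7 were called, against 5.84% of all genes, and 3 had an unadjusted p under 0.05. The median difference of the components was 1.09, against 0.041 over all genes, and with array weights it was 0.314. Blnk (2.15 ± 0.80, adjusted p = 0.123), Plcg2 (1.92 ± 0.67, adjusted p = 0.1002), Syk (1.61 ± 0.82, adjusted p = 0.278) and Blk (1.09 ± 0.43, adjusted p = 0.149) had wide errors in limma. The first 3 rested on pre-B replicate 2, an array of narrow spread. Without it Blnk differed by 0.83 (adjusted p = 0.576), Plcg2 by 0.73 (adjusted p = 0.496) and Syk by -0.18 (adjusted p = 0.886). Without the 3 arrays of narrow spread, among them this one, Blk passed (1.27, adjusted p = 0.0065). Without pre-B replicate 1 instead, Blnk (3.29, adjusted p = 0.0125) and Plcg2 (2.60, adjusted p = 0.0297) did, which puts more weight on the array of low values. Granulocyte markers fell in this step (8 of 8 called lower), with a mean level per array of 9.32 to 11.52 in pre-B, 10.48 to 10.97 in pro-B and 3.82 to 6.08 in transitional cells. In mixtures of cells a larger share of other cells and less RNA per B cell cannot be told apart, and the part of these cells was not tested.

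Partners of the components in the pathway were followed in 6 lists with 40 measured genes. Of these, 9 were higher and 1 lower in transitional than in pre-B cells, with 5.84% of all genes called. Complement receptor Cr2, part of the co-receptor, rose by 4.41 ± 0.58 and its partner Cd81 by 2.00 ± 0.54. The inhibitory receptor Cd22 rose by 3.72 ± 0.41 and the phosphatase Ptpn6, which it recruits, by 1.94 ± 0.43. Nfatc1, a transcription factor activated by calcium, rose by 3.04 ± 0.58, the calcium channel Itpr3 by 1.95 ± 0.47 and the exchange factor Vav1 by 1.55 ± 0.45. Vpreb1, of the surrogate light chain, fell by 3.58 ± 0.79.

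From transitional to GC cells 1 of 7 components was called, against 13.5% of all genes (8.21% called lower). Cd79a fell by 1.30 ± 0.37 (2.47-fold, adjusted p = 0.0233, limma), with no overlap between the 5 GC and the 4 transitional arrays, as in 34.8% of all genes. The strain also changed in this step, and with strain as a covariate the difference was -2.50 with an adjusted p of 0.152. Only pro-B cells came from both strains (2 arrays of 129 and 1 of B6), so that covariate rests on the pro-B arrays alone. One of these, pro-B replicate 1, was of narrow spread. It therefore cannot tell strain from stage here, and 0.323% of all genes were called with it. The call was also lost without transitional replicate 1 (adjusted p = 0.0594) or 2 (0.0783), or GC replicate 1 (0.0682) or 2 (0.0589). Cd79b did not change past the test (0.18, 95% interval -0.56 to 0.92), and Blk (-0.84 ± 0.38) had an adjusted p of 0.145. Blk was called lower in 4 of 18 settings and Syk in 2. Of the 40 partners only Igll1, of the surrogate light chain, was higher (1.07 ± 0.31) and only the exchange factor Vav2 lower (-1.07 ± 0.27). Markers of other cells rose in this step. The mean level per array of the granulocyte markers (7 of 8 called higher) was 7.01 to 9.36 in GC and 3.82 to 6.08 in transitional cells. That of the NK-cell markers (5 of 6) was 6.94 to 8.07 against 4.61 to 5.09, and that of the T-cell markers (5 of 6) 6.32 to 7.48 against 4.99 to 5.34. The macrophage and dendritic markers (5 of 8) were 5.70 to 6.79 against 4.48 to 5.32. The part of these cells was not tested.

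From GC cells to plasmablasts none of the 7 was called by limma, none had an unadjusted p under 0.05, and 0.678% of all genes were called. The difference of Cd79a was 0.73 (95% interval -0.03 to 1.5) and that of Cd79b -0.08 (-0.82 to 0.66). Cd79a was called higher in 1 of 17 settings, that with array weights (0.62, adjusted p = 0.0117, limma). None of the 40 partners was called, and 2 had an unadjusted p under 0.05. Of the NK-cell markers 4 of 6 were called lower and of the T-cell markers 3 of 6, and their part was not tested.

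From plasmablasts to plasma cells both signalling chains were called lower and no other component was, against 14.3% of all genes called and 5.39% called lower. Cd79a fell by 1.47 ± 0.42 (2.78-fold, adjusted p = 0.0201) and Cd79b by 1.32 ± 0.41 (2.51-fold, adjusted p = 0.0305, limma). The plasma cell arrays lay below the plasmablast arrays for both genes, and 36.5% of all genes had no overlap. Against GC cells, Cd79b fell by 1.40 ± 0.39 (2.64-fold, adjusted p = 0.0127), while Cd79a differed by -0.74 ± 0.40 (adjusted p = 0.217), with 19.5% of all genes called and 7.63% called lower. These comparisons share the plasma cell arrays, of which replicates 1 and 2 were high for Ms4a1 and Cd22 beside replicate 3.

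The plasma cell calls were lost in several settings. Without plasma cell replicates 1 and 2, which leaves 1 plasma cell array, the differences from plasmablasts were -0.76 for Cd79a (adjusted p = 0.541) and -1.08 for Cd79b (adjusted p = 0.36). With the 3' minus 5' difference as a covariate they were -0.72 (adjusted p = 0.343) and -0.69 (adjusted p = 0.385), and those from GC cells were -0.001 for Cd79a and -0.78 for Cd79b (adjusted p = 0.234). The Cd79a call against plasmablasts was also lost without plasmablast replicate 3 (-1.30, adjusted p = 0.0662) or plasma cell replicate 1 (-1.32, adjusted p = 0.0974) or 2 (-1.26, adjusted p = 0.116). That of Cd79b was lost without any 1 of the 4 plasmablast arrays (-1.24 to -1.37, adjusted p of 0.053 to 0.0775) or plasma cell replicate 1 or 2 (both -1.26, adjusted p of 0.106 and 0.11), so with little change in size. Against GC cells the Cd79b call was lost without plasma cell replicate 1 (-1.34, adjusted p = 0.054) or 2 (-1.34, adjusted p = 0.0562) and without both (-1.16, adjusted p = 0.236). Btk (-0.74 ± 0.40, adjusted p = 0.268) was called lower than in plasmablasts without plasma cell replicates 1 and 2 (-1.88, adjusted p = 0.0276) and with the 3' minus 5' covariate (-1.37, adjusted p = 0.0498), and without replicate 3, its lowest array, differed by -0.18 (adjusted p = 0.881). Plcg2 (0.59 ± 0.67, adjusted p = 0.662) was called higher with array weights (1.27, adjusted p = 0.000123) and without plasma cell replicate 3 and the 3 arrays of narrow spread (1.40, adjusted p = 0.000842), but without plasma cell replicates 1 and 2 differed by -1.01 (adjusted p = 0.595).

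Around them, 3 of the 40 partners rose and 6 fell in plasma cells relative to plasmablasts. Over all genes 14.3% were called and 5.39% called lower. Of 9 measured inhibitors 4 fell and 1 rose. The adaptor Pag1 fell by 5.12 ± 0.37 and the kinase Csk, which Pag1 recruits, by 2.50 ± 0.50, while the inhibitory receptor Cd5 rose by 3.08 ± 0.55. Cr2 fell by 5.58 ± 0.58 and the calcium sensor Stim1 by 1.75 ± 0.40. The calcineurin subunit Ppp3ca rose by 1.73 ± 0.50 and the Ras activator Sos1 by 1.26 ± 0.31. Granulocyte markers were 3.14 to 3.87 per array in plasma cells and 7.04 to 9.05 in plasmablasts (7 of 8 called lower). Of the NK-cell and T-cell markers 2 of 6 each were called lower, and the part of these cells was not tested.

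**Figure D2:**
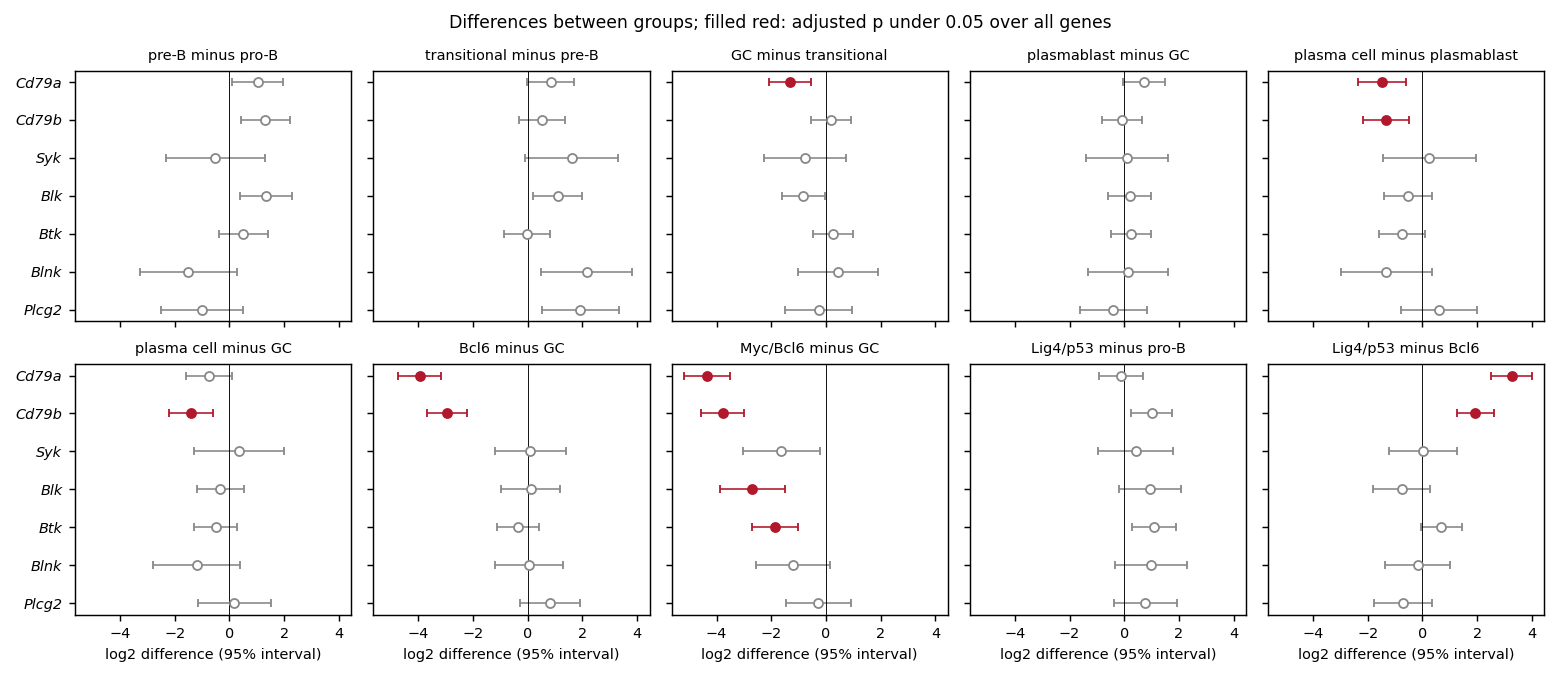
Log2 difference (horizontal axis) of each measured component (vertical axis) in 10 comparisons, with 95% intervals from limma; filled red points have an adjusted p under 0.05 over all genes. The signalling chains Cd79a and Cd79b carry the large differences in the Bcl6 and Myc/Bcl6 tumours (-2.95 to -4.35), and the intervals of the other components in Bcl6 tumours include 0.

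In Bcl6 tumours the signalling chains fell and the cytoplasmic components did not pass the test. Cd79a was lower than in GC cells by 3.96 ± 0.38 (15.5-fold, adjusted p = 3.726e-09) and Cd79b by 2.95 ± 0.35 (7.72-fold, adjusted p = 2.294e-07, limma), where 26.8% of all genes were called and 13.9% called lower. The 4 tumour arrays lay below the 5 GC arrays for both genes, and 33.2% of all genes had no overlap. By absolute size the Cd79a difference stood at the 99.3rd percentile of all genes and that of Cd79b at the 97.5th. The 95% intervals of the others were -1.21 to 1.40 for Syk, -0.97 to 1.18 for Blk, -1.11 to 0.43 for Btk, -1.20 to 1.30 for Blnk and -0.27 to 1.92 for Plcg2. In this fit each of these intervals excludes a fall as large as that of Cd79a or Cd79b. Plcg2 (0.83 ± 0.54, adjusted p = 0.256) was called higher without the 3 arrays of narrow spread (1.25, adjusted p = 0.0148) and with array weights (1.17, adjusted p = 0.00418). With the 3' minus 5' difference as a covariate it differed by -0.17 (adjusted p = 0.927), Btk by -1.45 (adjusted p = 0.0688) and Blnk by -0.87 (adjusted p = 0.622).

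The falls of Cd79a and Cd79b were called under all 17 settings tried, between -4.11 and -2.82 for Cd79a and between -3.18 and -2.13 for Cd79b. The smallest sizes came with the 3' minus 5' difference as a covariate, at adjusted p = 0.000505 and 0.00626. Plasma cell replicates 1 and 2, with a 3' minus 5' difference (4.59 and 4.46) in the range of the Bcl6 tumours, had Cd79a at 9.88 and 9.76. Their Cd79b was 10.05 in both, against 7.57 to 9.32 in the Bcl6 tumours, where Cd79a was 6.80 to 7.22. These are arrays of another cell type, and the part of RNA length in the falls was not tested.

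**Figure D3:**
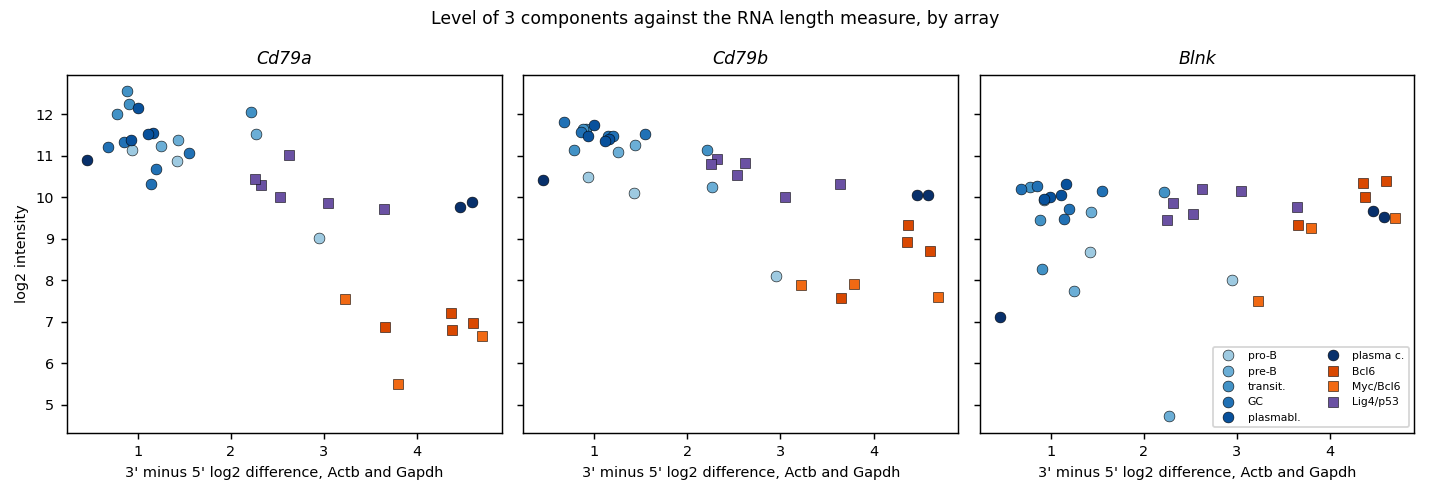
Log2 intensity of Cd79a, Cd79b and Blnk (vertical axis) against the RNA length measure, in log2 units of 3' minus 5' signal (horizontal axis), 1 point per array, circles for sorted cells and squares for tumours. At a 3' minus 5' difference of 4.36 to 4.70, Cd79a is 9.88 and 9.76 in 2 plasma cell arrays and at 7.22 or less in the Bcl6 and Myc/Bcl6 tumours. Cd79b is 10.05 in both plasma cell arrays and at 9.32 or less in those tumours. The part of RNA length was not tested.

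Markers of macrophages, NK cells and granulocytes moved with the Bcl6 tumours. The mean level of 8 macrophage and dendritic markers was 7.11 to 8.94 per tumour array and 5.70 to 6.79 per GC array, with 3 of 8 called higher. Csf1r, the macrophage growth factor receptor, had a mean of 12.09 against 7.73 and C1qb, a complement chain, 12.42 against 8.71. The T-cell markers were 6.11 to 7.09 in Bcl6 tumours and 6.32 to 7.48 in GC cells, and 1 of 6 was called lower. The NK-cell markers, all 6 called lower, were 4.24 to 5.10 per tumour array against 6.94 to 8.07 in GC cells, with a median difference of -2.97. The granulocyte markers, 5 of 8 called lower, were 3.57 to 9.95 against 7.01 to 9.36, with a median of -3.31. Of the B-cell genes, Cd22 had a mean of 10.11 in Bcl6 tumours and 10.43 in GC cells, and Ms4a1 9.64 against 11.71. The B-lineage factor Ebf1 had 6.34 against 9.79 (-3.44 ± 0.45). Of the 4 measured B-lineage markers 1 was called lower (Ebf1) and 1 higher (Pax5, whose probe set did not mark the lineage here). The share of B cells in the unsorted tumours was not measured, and the part of other cells in the result was not tested.

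Of the 40 partners, 14 fell and 1 rose in Bcl6 tumours, with 26.8% of all genes called and 13.9% called lower. Cr2 fell by 5.46 ± 0.51 and Cd81 by 1.86 ± 0.40, both of the co-receptor, and Vpreb3, of the pre-B-cell receptor list, by 4.13 ± 0.61. The adaptor Bcl10, which links protein kinase C to NF-κB, fell by 3.83 ± 0.79, the small GTPase Rac2 by 2.40 ± 0.43, the adaptor Grb2 by 1.81 ± 0.56 and the calcineurin subunit Ppp3r1 by 2.59 ± 0.54. Inhibitors fell too: Csk by 2.89 ± 0.47, Pag1 by 2.09 ± 0.47 and the lipid phosphatase Inpp5d by 1.52 ± 0.40. Nfatc2 alone rose (1.61 ± 0.47). The median of the 40 was -0.94, that of the 7 components 0.05 and that of all genes 0.212. With dim genes left out the median of all genes was -0.095, so that the components' median (again 0.05) lay above it, and with the 3' minus 5' covariate the components' median was -0.87.

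In Myc/Bcl6 tumours 4 of 7 components fell against GC cells, with 48.1% of all genes called and 20.9% called lower. Cd79a fell by 4.35 ± 0.41 (20.4-fold, adjusted p = 3.021e-09), Cd79b by 3.77 ± 0.38 (13.7-fold, adjusted p = 1e-08), Blk by 2.69 ± 0.58 (6.44-fold, adjusted p = 0.000454) and Btk by 1.86 ± 0.41 (3.62-fold, adjusted p = 0.000604, limma). No array of these tumours overlapped with GC cells for the 4 genes, nor for Syk, and 52.6% of all genes had no overlap. Syk differed by -1.63 ± 0.70 (adjusted p = 0.0533), Blnk by -1.21 ± 0.67 (adjusted p = 0.129) and Plcg2 by -0.28 ± 0.59 (adjusted p = 0.709). Syk was called lower in 5 of 16 settings and Blnk in 2. Both tumour comparisons use the same 5 GC arrays.

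The 4 calls held in all 16 settings, and the sizes of Blk and Btk varied most. Without Myc/Bcl6 replicate 1, the array low for Ms4a1 and Ighm, Blk differed by -1.5 (adjusted p = 0.0195), Btk by -1.38 (adjusted p = 0.014), Cd79a by -3.82 (adjusted p = 1.453e-07) and Cd79b by -3.83 (adjusted p = 1.901e-07). With the arrays quantile normalized anew, Btk differed by -1.12 (adjusted p = 0.0324). Of the 4 measured B-lineage markers 3 were called lower and 1 higher. The macrophage and dendritic markers were 6.27 to 7.43 per array, with Csf1r at a mean of 11.63. The NK-cell markers (5 of 6 called lower) were 4.45 to 5.28, the granulocyte markers (5 of 8) 4.41 to 6.74 and the T-cell markers (4 of 6) 4.97 to 6.59 per array. The part of these cells was not tested.

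Of the 40 partners 26 were lower and none higher in Myc/Bcl6 tumours, by limma, and 28 had an unadjusted p under 0.05. Over all genes 48.1% were called and 20.9% called lower. Falls reached every arm: Rac2 by 4.78 ± 0.47, Nfatc1 by 4.63 ± 0.54, Bcl10 by 5.63 ± 0.86, the kinase Prkcb downstream of Plcg2 by 3.93 ± 0.60, Cr2 by 5.86 ± 0.56, Csk by 4.12 ± 0.52 and Igll1 by 3.00 ± 0.55. The median of the 40 was -1.88, close to that of the 7 components (-1.86) and below that of all genes (0.31).

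**Figure D4:**
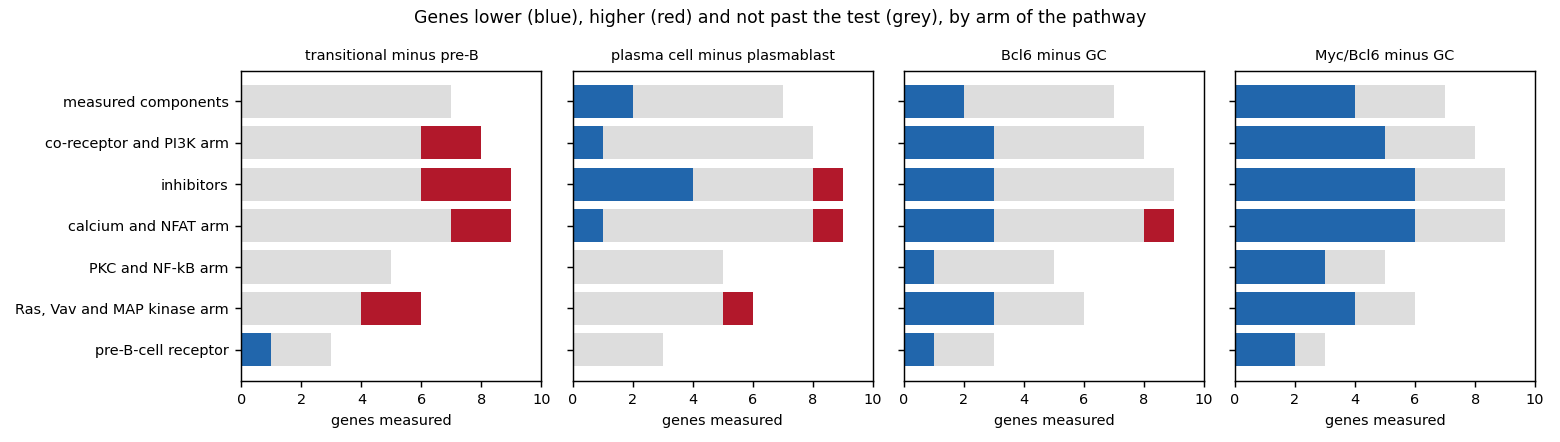
Number of measured genes (horizontal axis) of the components and of 6 lists of pathway partners (vertical axis) that were called lower (blue), called higher (red) or not called (grey) in 4 comparisons. In Bcl6 tumours 2 of 7 components and 14 of 40 partners are lower, and in Myc/Bcl6 tumours 4 of 7 and 26 of 40. Over all genes 13.9% and 20.9% are called lower in these tumours.

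In Lig4/p53 tumours Cd79a and Cd79b lay within the range of the sorted arrays. Against pro-B cells 0 of 7 components were called by limma, with 21.1% of all genes called and 2 components at an unadjusted p under 0.05. Cd79a differed by -0.12 (95% interval -0.93 to 0.69) and was called lower with array weights (-0.77, adjusted p = 0.0187). Btk (1.08 ± 0.40, adjusted p = 0.05005) and Cd79b (1.00 ± 0.37, adjusted p = 0.0513) lay just outside the threshold. Btk passed it in 5 of the alternative settings, such as the fit on these 2 groups alone (adjusted p = 0.0127). Cd79b passed without pro-B replicate 2 (1.27, adjusted p = 0.0269) or 3 (1.46, adjusted p = 0.00901), without Lig4/p53 replicate 6 (1.11, adjusted p = 0.0358), with the 3' minus 5' covariate (1.25, adjusted p = 0.0154) and with the mean of all probe sets (adjusted p = 0.0449). Without pro-B replicate 1, the lowest pro-B array and one of narrow spread, its difference was 0.27 (adjusted p = 0.768).

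Of the 40 partners 5 rose and 3 fell against pro-B cells, a share near the 21.1% of all genes called. The kinase Akt1 rose by 2.54 ± 0.47, Cd22 by 2.85 ± 0.45 and the NF-κB kinase Ikbkb by 2.84 ± 0.67, while Vpreb1 fell by 6.73 ± 0.69. Granulocyte markers were 5.73 to 7.81 per array in these tumours and 10.48 to 10.97 in pro-B cells (7 of 8 called lower). NK-cell markers (6 of 6 called lower) were 3.56 to 4.80 against 5.28 to 7.21 and T-cell markers (4 of 6) 3.86 to 4.12 against 4.95 to 5.99. The part of these cells was not tested.

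Set against Bcl6 tumours directly, Lig4/p53 tumours were higher for Cd79a by 3.26 ± 0.36 (9.57-fold, adjusted p = 6.621e-08) and for Cd79b by 1.93 ± 0.34 (3.82-fold, adjusted p = 7.741e-05, limma), with 26.4% of all genes called and 15.5% called higher. The arrays did not overlap for either gene, as in 24.2% of all genes, and both calls held in all 18 settings. The other 5 components were not called in the main fit. Their 95% intervals were -1.24 to 1.27 for Syk, -1.79 to 0.28 for Blk, -0.05 to 1.43 for Btk, -1.38 to 1.02 for Blnk and -1.77 to 0.34 for Plcg2. With array weights Plcg2 (-1.30, adjusted p = 0.00159) and Blk (-1.18, adjusted p = 0.00425) were called lower, and so was Plcg2 without the 3 arrays of narrow spread (-1.14, adjusted p = 0.023). Btk was called higher on the 2 groups alone (0.69, adjusted p = 0.0444) and with the 3' minus 5' covariate (1.22, adjusted p = 0.0171). Syk and Blnk were called in 0 of 18 settings. Of the partners 5 were higher and 4 lower. Vpreb3 (4.15 ± 0.58) and Akt1 (3.51 ± 0.43) were among the higher, and Fcgr2b (-2.85 ± 0.47) and the phosphatase Ptpn22 (-3.23 ± 0.64) among the lower. The macrophage and dendritic markers (4 of 8 called lower) were 4.66 to 6.25 per Lig4/p53 array and the T-cell markers (6 of 6) 3.86 to 4.12, and their part was not tested.

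Syk was read by 3 probe sets, which did not move alike. The set used, 1418261_at, and 1418262_at were not called in any of the 10 comparisons. The third, 1425797_a_at, was dimmer, with group means of 3.92 to 7.15, and was called lower in GC than in transitional cells (-1.86 ± 0.50, adjusted p = 0.0183), in plasma cells than in plasmablasts (-1.76 ± 0.57, adjusted p = 0.0442) and in Bcl6 tumours than in GC cells (-1.37 ± 0.48, adjusted p = 0.0322). Over the 20380 probe sets of that limma fit, 13.7%, 13.3% and 27.5% were called. Which part of the Syk transcript each probe set reads was not analysed here. The other 6 genes had 1 probe set each.

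**Figure D5:**
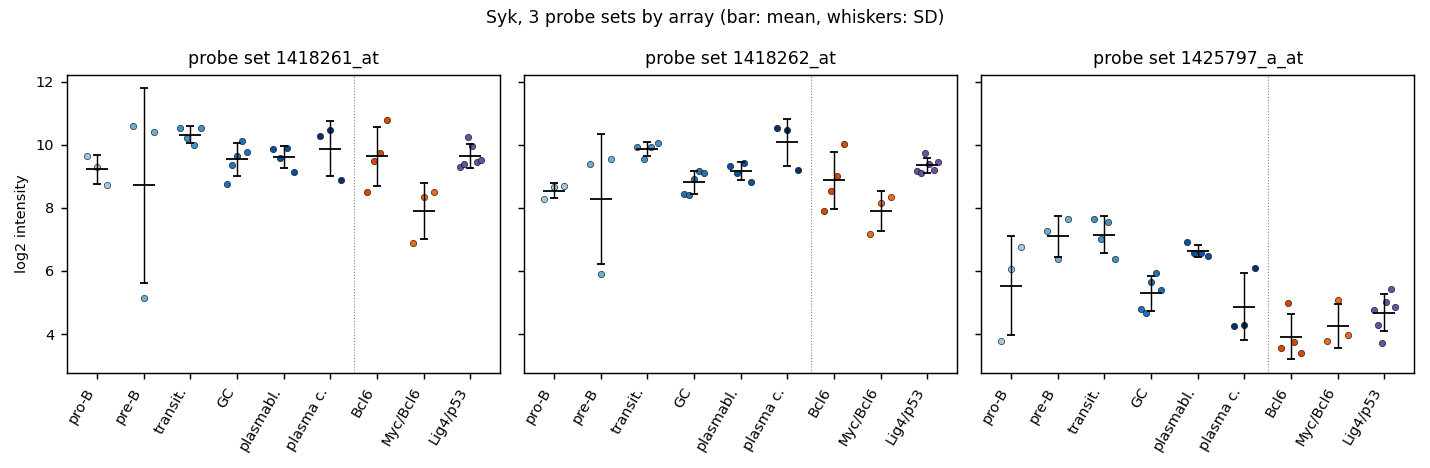
Log2 intensity (vertical axis) of the 3 Syk probe sets in each array by group (horizontal axis); points are arrays, bars the mean and whiskers the SD. Group means of 1425797_a_at run from 3.92 in Bcl6 tumours to 7.15 in transitional cells, an order that the other 2 probe sets do not share.

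Beyond the 2 chains the components did not follow one profile. Over the 9 group means Blnk and Plcg2 correlated with r = 0.766, Syk and Blk with r = 0.824, and Cd79a with Blnk at -0.045 and with Plcg2 at -0.363. The gene whose 9 group means were most like those of Cd79a was Rps9, a ribosomal protein gene (r = 0.986), and for Cd79b it was Cacfd1 (r = 0.985). Over the 35 arrays the r of these pairs was 0.912 and 0.904. The most alike genes were Dock2 for Syk (r = 0.97), Arhgap27 for Btk (r = 0.967), M6pr for Blnk (r = 0.948), Natd1 for Blk (r = 0.967) and Scaf4 for Plcg2 (r = 0.985), with r of 0.631 to 0.845 over the 35 arrays. For the mean profile of the 7 components they were Icmt (r = 0.983), Add3 (0.98), Strn4 (0.979), Atg12 (0.978) and Rnf111 (0.977), with r of 0.855 to 0.891 over the arrays. These are the highest of 12393 genes over only 9 points, which share arrays and RNA quality.

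The T-cell counterparts of the components, such as the Cd3 chains and Zap70, were followed in the same way. In Bcl6 tumours 3 of 8 measured counterparts fell against GC cells and none rose, with 26.8% of all genes called and 13.9% called lower. The NK-cell markers fell in the same comparison (6 of 6), and their part was not tested. Cd247, the zeta chain, fell by 2.19 ± 0.44. Of 6 other Src and Tec kinases Tec fell by 2.11 ± 0.40 and Fyn by 1.67 ± 0.47, while Bmx rose by 0.76 ± 0.28 from a low level (2.59 in GC cells). Falls of the T-cell counterparts were not particular to Bcl6 tumours. Against GC cells 5 of 8 fell in Myc/Bcl6 tumours and 4 in plasma cells, with 20.9% and 7.63% of all genes called lower. From transitional to GC cells 5 rose and 1 fell, with 13.5% of all genes called. In Lig4/p53 tumours 6 fell against pro-B cells, with 21.1% of all genes called.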

How the data were processed

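Tripure was used to isolate total RNA, and NuGen Ovation V2 to amplify it before biotin labelling, per the labels' protocols. Probe set intensities were deposited on the log2 scale, made by the authors with RMA, per the submitters' processing notes. RMA makes arrays share a distribution, so differences are relative to the other genes of an array. The table held 22690 probe sets. Those with 1 gene symbol in the platform annotation (20380) were used, 691 with several and 1555 with none, and 64 controls, were left out. The probe set of highest mean stood for each of 12393 genes, 4956 of which had several. Arrays give no counts, and their number limits the precision.

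Groups came from the labels. limma contrasts were fitted on the 22 sorted arrays for normal stages and on all 35 for tumours, with Benjamini-Hochberg adjustment. The components and all gene lists were chosen with earlier results of these data known. Genes named are all components, up to 3 called genes of smallest p per list and comparison, markers, and the most alike genes by Pearson correlation over group means. The fits were tested on simulated data. Alternatives were averaging a gene's probe sets, dim genes left out (mean under 4.921), renewed quantile normalization, array weights, fewer arrays, the 2 groups alone, a block for replicate number, and covariates for strain or RNA length. Leaving out plasma cell arrays was added after seeing the data. R 4.3.3 with limma 3.58.1 and Python 3.11.15 with pandas 2.3.3 were used.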

Additional observations from a re-analysis of the deposited data

Results flagged for a closer look

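The change from the sorted stage that each tumour was set against differed between tumour models, by a contrast chosen after the levels were seen. The difference of Bcl6 tumours from GC cells, minus that of Lig4/p53 tumours from pro-B cells, was -3.83 ± 0.55 for Cd79a (adjusted p = 1.429e-05, limma over all genes) and -3.95 ± 0.51 for Cd79b (adjusted p = 3.483e-06). For Btk it was -1.42 ± 0.55 with an adjusted p of 0.04994, at the threshold. Of all genes 28.4% passed the same test. In the other 4 measured components it did not pass. This contrast was fitted on all 35 arrays only, and no other setting was tried for it. Its Lig4/p53 minus pro-B part for Cd79b was 1.00, but 0.27 without pro-B replicate 1, an array of narrow spread. The 3' minus 5' difference was 3.65 to 4.60 in Bcl6 and 2.25 to 3.64 in Lig4/p53 tumours, and its part was not tested. No array stood apart by Dixon's gap test in the 35 combinations of a component and a group of 4 to 10 arrays; groups of 3 were not tested.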

How the results depend on the processing

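The counts of components called in Bcl6 tumours against GC cells and in Myc/Bcl6 tumours stayed within 1.5 times under every setting run. Array weights, whose estimate did not fully converge, gave 2 called of 7 for GC minus transitional, 1 for plasmablast minus GC, 4 for plasma cell minus plasmablast, 4 for plasma cell minus GC, 2 for Lig4/p53 minus pro-B and 4 for Lig4/p53 minus Bcl6. Renewed quantile normalization gave 2 for transitional minus pre-B and 2 for GC minus transitional. Leaving out the 3 arrays of narrow spread gave 1, 3 and 2 for transitional minus pre-B, GC minus transitional and plasma cell minus GC, and 4 for the last without plasma cell array 3 too. The 2 groups alone gave 3 for GC minus transitional and 1 for Lig4/p53 minus pro-B. Strain as a covariate, which rests on the pro-B arrays, gave 0 for GC minus transitional. The covariate for RNA length gave 1, 0 and 1 for plasma cell minus plasmablast, plasma cell minus GC and Lig4/p53 minus pro-B. Dim genes left out gave 1, and the mean of all probe sets 2, for Lig4/p53 minus pro-B. Without plasma cell arrays 1 and 2 the count for plasma cell minus plasmablast was 1, which was Btk, as under the RNA length covariate. The causes were not tested.

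Leaving out 1 array at a time gave 0 to 0 for pre-B minus pro-B and plasmablast minus GC, 0 to 1 for GC minus transitional and plasma cell minus GC, 0 to 2 for transitional minus pre-B, plasma cell minus plasmablast and Lig4/p53 minus pro-B, 2 to 2 for both Bcl6 comparisons, and 4 to 5 for Myc/Bcl6 minus GC. With 1 array left in a group, it is assumed to vary like the others. Of 1169 values for single components, 23 lost and 50 gained a call and none that was called changed sign. Whether replicate numbers pair the arrays was not settled. No comparison had a correlation over 0.1 for all of its pairs of same-numbered arrays, but some single pairs were over it. The pairs ran from -0.491 to 0.391, both in pre-B minus pro-B, and from 0.066 to 0.223 in GC minus transitional. Arrays of different number were not correlated beside them. With the replicate block the count for plasma cell minus plasmablast was 1, and no other count of components moved by over 1.5 times. Renewed quantile normalization moved the median of all genes from -0.27 to -0.055 for GC minus transitional and from 0.31 to 0.102 for Myc/Bcl6 minus GC, and the share of higher among called genes from 39.2% to 56.7% in the former.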
